A study of Drosophila melanogaster with 3 samples.

Results

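The genes described here are 10 genes for insulator and architectural proteins of Drosophila melanogaster, of 13945 protein-coding genes on the 6 main chromosome arms: Trl, M1BP, BEAF-32, CTCF, su(Hw), Ibf1, Ibf2, Chro, Cp190 and mod(mdg4). They were chosen by name, with earlier results of these data known, so their counts beside those of all genes are a description. For each gene, every peak was taken whose summit lay between 2 kb before the gene's start and 2 kb past its end, and this stretch is called the gene's window below. The windows held 15 of the 4770 peaks of the series' conservative list, all of them accounted for in the text.

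The peaks came from chromatin immunoprecipitation with sequencing (ChIP-seq) of embryos aged 0 to 24 h of strain CG11695-GFP, which carries an insertion of the zinc finger gene CG11695 fused to eGFP. An antibody to GFP recovered the sonicated chromatin, in 3 biological replicates that make up 1 group. Whole embryos were used, so binding in different cell types cannot be told apart, and the untagged protein made by the flies' own gene is not seen. No control library was analysed here, so there was no condition to compare and no test was run, and the tagged protein cannot be told apart from anything else that brings chromatin down. Nothing below measures the expression or the protein of the 10 genes: a peak says that chromatin at the gene was recovered with the antibody to GFP.

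Insulator proteins bind DNA at the borders of chromatin domains and at promoters, where they can keep enhancers and repressive chromatin from acting on the wrong gene. In flies this work is shared: a set of sequence-specific factors, each with its own recognition sequence, brings in common partners, above all Cp190, that lack most of that specificity themselves. Many of these proteins are abundant at housekeeping promoters of the embryo, and several carry zinc fingers, as CG11695 does.

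Of the 10 genes, 8 had at least 1 peak in their window in the conservative list. Among all protein-coding genes 32.1% had one, counted the same way, with a median window of 6166 bp against 7636 bp for the 10. A peak within 500 bp of one of the gene's own transcription start sites (TSSs), called a promoter peak, was present at 6 of the 10 (Trl, M1BP, BEAF-32, Ibf2, Chro and Cp190), against 16.2% of all protein-coding genes. CTCF and su(Hw) had no peak in their windows in any thresholded list.

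Sequences of some of the sites, strong and weak, are shown first. They were picked because they differ in composition and in the recognition sequences they hold, so they are not typical of the 15. All are on the plus strand of assembly dm6, 5′ to 3′, read from the RefSeq copy of the assembly, and reach at most 100 bases to each side of the summit. The first pair is the strongest Trl peak (chr3L:14759422-14759622) and the strongest mod(mdg4) peak (chr3R:21378658-21378858), with capitals for runs of 8 or more A or T.
Trl, strongest site: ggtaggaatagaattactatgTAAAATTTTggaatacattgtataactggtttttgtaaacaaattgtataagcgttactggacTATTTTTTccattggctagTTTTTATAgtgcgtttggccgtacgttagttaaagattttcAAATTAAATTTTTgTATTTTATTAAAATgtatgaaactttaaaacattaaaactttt
mod(mdg4), strongest site: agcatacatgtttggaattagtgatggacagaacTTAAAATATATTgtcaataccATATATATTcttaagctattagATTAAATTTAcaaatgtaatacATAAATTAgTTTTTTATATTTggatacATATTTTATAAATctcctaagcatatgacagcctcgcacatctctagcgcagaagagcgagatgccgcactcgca
The next is the only peak of Cp190 (chr3R:15275305-15275505), with capitals for the letters GGTGGCGC of the CTCF core, here on the minus strand.
Cp190: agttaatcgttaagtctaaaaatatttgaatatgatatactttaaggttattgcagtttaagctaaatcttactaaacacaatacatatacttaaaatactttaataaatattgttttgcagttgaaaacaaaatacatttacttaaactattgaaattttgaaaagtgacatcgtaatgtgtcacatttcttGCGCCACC
The following pair shows the promoter side of M1BP (chr3R:8731699-8731870) with capitals for TGCATA, a core of the su(Hw) sequence, and the weakest Trl site (chr3L:14758046-14758246), the most GC-rich of the 15, with capitals for GAGAG, the letters known for the Trl product itself.
M1BP: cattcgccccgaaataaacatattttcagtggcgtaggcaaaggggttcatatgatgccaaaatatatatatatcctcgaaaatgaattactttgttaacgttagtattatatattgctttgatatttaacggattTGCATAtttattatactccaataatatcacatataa
Trl, weakest site: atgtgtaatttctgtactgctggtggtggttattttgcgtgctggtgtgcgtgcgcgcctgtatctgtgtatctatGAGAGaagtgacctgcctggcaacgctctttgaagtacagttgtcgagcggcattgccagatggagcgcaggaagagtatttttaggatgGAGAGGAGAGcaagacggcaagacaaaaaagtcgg
The last pair, of 30 bases each, lies beside the strongest Chro summit (chr3L:22878879-22878908), with capitals for CGATA, the core of BEAF-32 sites, and at the inner summit of mod(mdg4) (chr3R:21365419-21365448), with capitals for TGCATA on both strands, which overlap.
Chro: gtgtattgcctgtCGATAgctttaaactaa
mod(mdg4), inner site: attatagcaaaaTATGCATAttggtattgg

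These letters are a description of the windows and say nothing about which protein sits there. The CTCF core was found at 1 of the 15 summits, that of Cp190, and at 24 of the 4770 peaks of the conservative list (0.503%), searched on both strands within 100 bp of each summit. TGCATA was found at 2 of the 15 and in 14.8% of all peaks. CGATA was found at 3 of the 15, both Chro summits and the weakest of mod(mdg4), and in 24.0% of all peaks. GAGAG was found at 1 of the 15 and in 24.1% of all peaks. The longer DRE sequence TATCGATA, which contains CGATA, and motif 1, the sequence bound by M1BP, were found at 0 of the 15, and in 1.61% and 0.629% of all peaks.

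Runs of 8 or more A or T were common everywhere: 13 of the 15 summits had one, and so did 87.7% of all peaks. The GC content of the 201 bases around the summit had a median of 30.8% over the 15, against 34.8% over all peaks, and lay below that value at 10 of the 15. It ranged from 24.9% at the strongest Trl site and at Cp190, where only 5.51% of all peaks were lower, to 49.8% at the weakest Trl site.

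Levels were compared within a list, since the authors' signal value has no stated scale and the libraries' depth is unknown. For each gene the strongest record in its window was also looked up in the authors' ranked lists, which go below the threshold and held 80383, 73730 and 70919 records for replicates 1, 2 and 3. The threshold is a global irreproducible discovery rate (IDR) of 0.01, where a low IDR means that the ranks of a peak repeat between a pair of peak sets.

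By place in these lists the 10 genes fell into 4 bands, drawn after the values were seen, whose ranges over the 3 replicates did not overlap. Trl and Chro stood within the top 0.0268% of the records of every replicate. Cp190 and mod(mdg4) stood between 0.171% and 0.457% from the top. Ibf1, Ibf2, M1BP and BEAF-32 followed between 1.34% and 4.09%, and CTCF and su(Hw) stood between 6.12% and 31.0%. The place of mod(mdg4) is that of a peak 1357 bp upstream of its TSS and 219 bp from that of its neighbour tin. A peak inside mod(mdg4) stood lower, between 0.552% and 0.976%. Windows also differed in length, from 4775 bp at Ibf2 to 30556 bp at mod(mdg4), and a longer one can hold more records.

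Within a band the order was not stable. Trl stood at 0.0167% ± 0.0090 and Chro at 0.0174% ± 0.0049 (mean ± SD, n = 3 replicates), and Chro was ahead of Trl in replicate 3 alone. Cp190 stood at 0.211% ± 0.0551 and mod(mdg4) at 0.298% ± 0.140, with mod(mdg4) ahead in replicate 1 alone. Ibf1 and Ibf2, which share a record, stood at 2.59% ± 0.484, M1BP at 2.87% ± 1.40 and BEAF-32 at 3.02% ± 0.938, and each replicate gave these a different order. CTCF at 14.2% ± 2.38 and su(Hw) at 17.3% ± 12.6 also changed places. For these genes the strongest record of replicate 2 lay at another site than those of replicates 1 and 3, so their means combine sites. Neighbours within a band differed by less than the larger SD of the pair. For Cp190 and mod(mdg4), and for CTCF and su(Hw), the difference was more than the smaller SD.

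**Figure D1:**
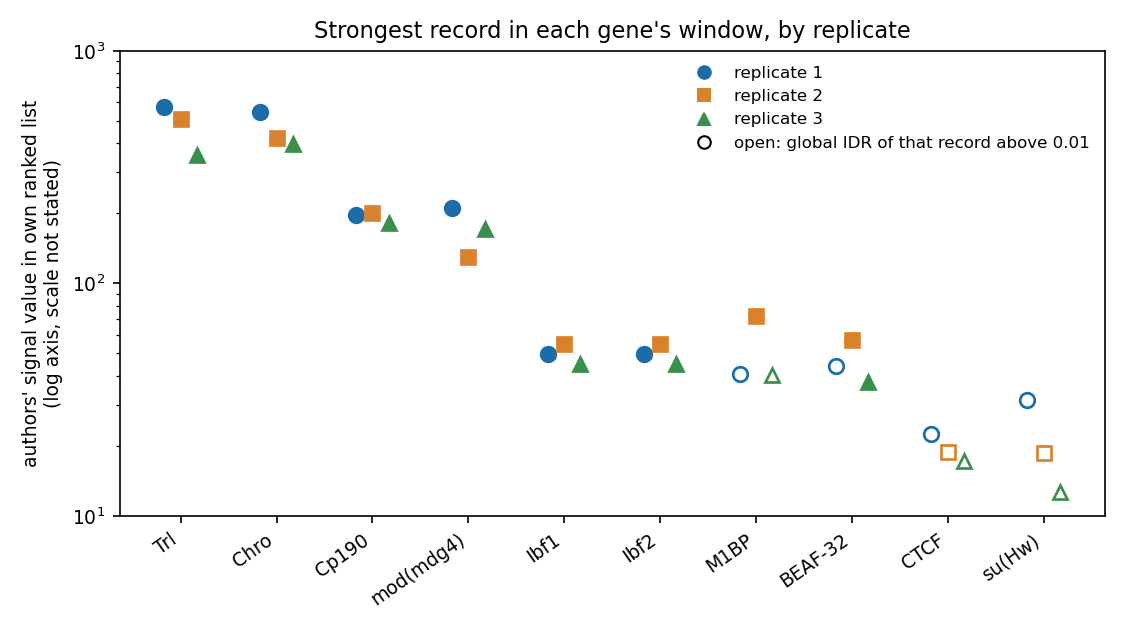
Authors' signal value of the strongest record in each gene's window (vertical log axis, scale not stated) in the ranked list of each replicate, with genes ordered by the conservative list's ranked counterpart; filled marks are records at a global IDR of 0.01 or less and open marks records above it. Trl and Chro lie between 355 and 570, and CTCF and su(Hw) between 12.7 and 31.5 with no filled mark.

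In the replicates' own thresholded lists, which held 3404, 2774 and 2716 peaks, the genes with a peak in their window numbered 6 in replicate 1, 8 in replicate 2 and 8 in replicate 3. The shares of all protein-coding genes with one were 25.8%, 22.1% and 22.2%. A peak in all 3 own lists was present at 6 of the 10 genes (Trl, Ibf1, Ibf2, Chro, Cp190 and mod(mdg4)), against 16.7% of all protein-coding genes. M1BP and BEAF-32 had one in replicates 2 and 3 and none in replicate 1.

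Of the 15 peaks, 7 overlapped a peak in every own list (46.7%), as did 1756 of all 4770 (36.8%), and 2 of the 15 overlapped none. The median signal of the 15 was 152, against 120 over the list, whose highest value was 2266. A TSS of any gene lay within 500 bp of 11 of the 15 summits, against 45.1% of all peaks. The 15 were taken for lying in a gene or within 2 kb of it and the list as a whole was not. These shares are therefore not alike and show no trait of the 15. Many windows reach into neighbouring genes, and a TSS of the gene itself was the nearest one at 9 of the 15.

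**Figure D2:**
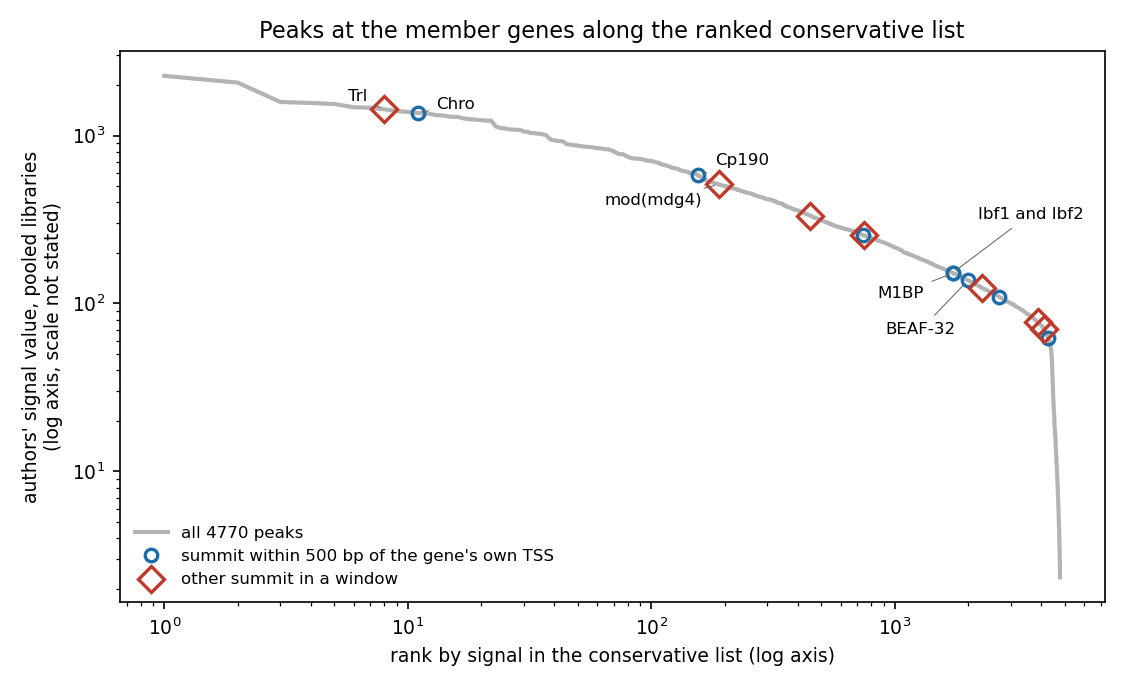
Authors' signal value (vertical log axis) against rank (horizontal log axis) for all 4770 peaks of the conservative list (grey line), with the 15 peaks in the windows marked; circles are summits within 500 bp of the gene's own TSS, diamonds the others, and a name stands at each gene's strongest peak. The strongest peaks of Trl, Chro, Cp190 and mod(mdg4) rank 8, 11, 156 and 189, and the other named ones rank 1730 to 2000.

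Of the 7 DNA-binding factors among the 10 genes, Trl had the most peaks. Trl encodes the GAGA factor, a BTB and zinc finger protein that binds GA-rich DNA and keeps promoters open (3L, 14747929 to 14761049, minus strand, 4 TSSs). Its 5 summits lay within 4278 bp of a gene of 13121 bp, 3 of them between its most upstream and most downstream TSS and 2 further into the gene. Of all protein-coding genes, 176 (1.26%) had 5 or more summits in their window, and 88.9% of all protein-coding genes had a shorter window than Trl.

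The strongest Trl peak (3L, 14759330 to 14759700) had a signal of 1432 and rank 8 in the conservative list. Its summit stood in an intron, 1527 bp downstream of the most upstream TSS, and no other TSS was nearer. In the own lists it had signals of 570, 508 and 355 in replicates 1, 2 and 3, with ranks 10, 6 and 17. All 3 libraries placed the summit within 5 bp of the position in the conservative list.

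The next Trl peak (3L, 14757122 to 14757277) was 5.62 times lower, at 255 and rank 743. It lay 120 bp downstream of the most downstream TSS, in a 5′ UTR. The own signals were 98.5, 86.9 and 63.0, so this promoter peak was found in each library. Another summit at 14756157 (signal 254, rank 749), in the intron 1179 bp beyond the same TSS, had 102 in replicate 1 and 86.9 in replicate 2. In replicate 3 its record of 73.1 did not reach the threshold.

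The weaker Trl summits differed between replicates. The one at 14760435 (signal 124, rank 2285, intron) was in the lists of replicates 1 and 2, with 44.6 and 44.9. The one at 14758146 (signal 110, rank 2682) lay 184 bp upstream of a TSS that Trl shares with CG42507, a gene annotated over it, and was in the list of replicate 3 alone, at 50.4. Replicate 2 had a further summit at 14762448 (46.6), 420 bp from the TSS of the neighbour Mgat4a, and replicate 3 another at 14755537 (42.8). Neither overlapped a peak of the conservative list.

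**Figure D3:**
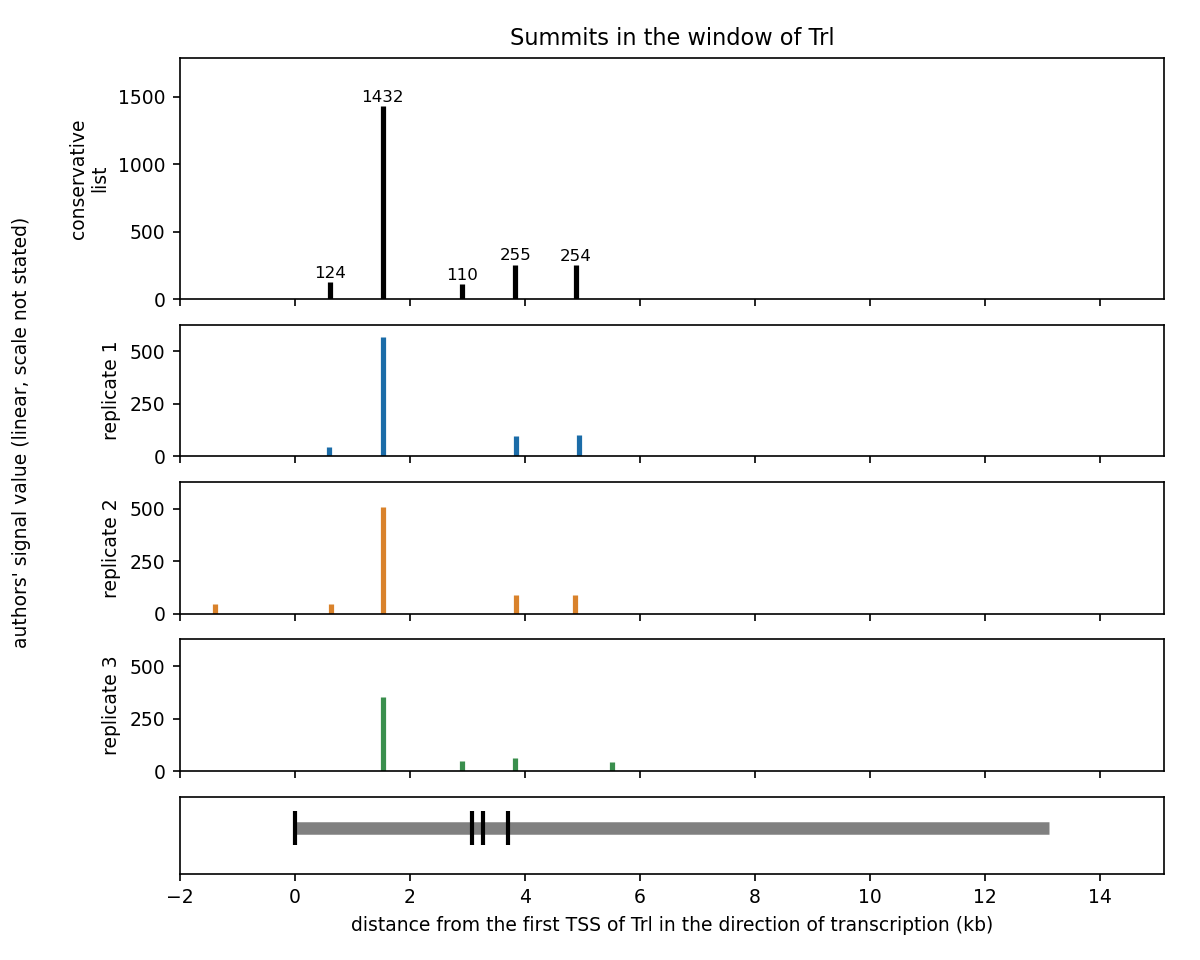
Peak summits in the window of Trl by distance from its most upstream TSS in the direction of transcription (kb), with the authors' signal value on linear axes that start at 0; the top panel is the conservative list, whose signals come from pooled libraries, the next 3 panels are the replicates' own lists on a shared scale, and the bar at the bottom is the gene with its 4 TSSs as black ticks. The intronic summit with 1432 is the tallest in all 4 lists, and the others reach 255 at most.

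M1BP encodes the motif 1 binding protein, a zinc finger factor of housekeeping promoters (3R, 8729790 to 8731698, minus strand). Its only conservative peak (3R, 8731580 to 8731959) had a signal of 152 and rank 1738. The summit lay 72 bp upstream of the TSS, in the 393 bp between M1BP and the divergent gene CG8202, whose TSS was 321 bp away. In replicate 2 this site had 72.1 at rank 959, and a second summit at 8731999 had 65.9.

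Replicate 1 had a record of 40.9 at M1BP that did not pass, with a global IDR of 0.0166. Replicate 3 had a record of 40.2 that missed the threshold too, at 0.0134. The record that passed in replicate 3 lay at 8732076, 15 bp from the TSS of CG8202, with a signal of only 2.48 at rank 2697 of 2716. The call at M1BP in replicate 3 rests on that record, at the low end of its list.

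BEAF-32 encodes a boundary factor that binds CGATA sequences near promoters (2R, 14770469 to 14772630, plus strand, 3 TSSs). Its stronger peak (2R, 14770199 to 14770578) had a signal of 137 and rank 2000, 80 bp upstream of the first TSS. The antisense gene asRNA:CR42254 has a TSS 119 bp from that summit, and a peak does not tell which of these promoters it belongs to. The site was in the own lists of replicate 2 (57.3, rank 1384) and replicate 3 (37.7, rank 2213). In replicate 1 the record had 44.3 and an IDR of 0.0120, just above the threshold.

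The weaker BEAF-32 peak, at 14771186, had a signal of 62.6 and rank 4270, 115 bp from another of its TSSs. It was in no own list. In the ranked lists it had 33.5, 11.7 and 22.3 in replicates 1, 2 and 3, all above the IDR threshold, so no library called it by itself.

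CTCF, the fly counterpart of the vertebrate boundary factor, had 8 records of the conservative list's ranked counterpart in its window (3L, 7353578 to 7356713, minus strand) and none past the threshold. The strongest had a signal of 58.0 and a global IDR of 0.0464, 202 bp from the TSS. The strongest per replicate were 22.4, 18.9 and 17.3, with IDRs of 0.532, 0.389 and 0.683. They were not 1 site: replicates 1 and 3 had theirs at 7356577 and 7356515, inside the gene. That of replicate 2 lay at 7353131, past the gene's 3′ end. The nearest conservative peak lay 3149 bp from the gene, beyond the window, with a signal of 79.9.

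For su(Hw), whose product binds the gypsy insulator (3R, 14304455 to 14308589, minus strand), the strongest record had 46.8 and an IDR of 0.257. The strongest per replicate were 31.5, 18.6 and 12.7, of which the first, in replicate 1, had an IDR of 0.0224. Those of replicates 1 and 3 lay upstream of the gene, at 14309404 and 14309406, and that of replicate 2 inside it, at 14308088. The nearest conservative peak lay 2636 bp from the gene and had a signal of 124. Both genes were thus without a called peak while ranked records were present, and at an unknown depth this does not show that no binding occurred.

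Ibf1 and Ibf2 encode the insulator binding factors, a pair of related proteins that act together and bring Cp190 to DNA. The genes stand head to head (3R, Ibf1 9258964 to 9260400 on the plus strand and Ibf2 9257727 to 9258501 on the minus strand), with TSSs 463 bp apart, and share a single peak (3R, 9258013 to 9258392). It had a signal of 152 and rank 1730. Its summit was not between the genes: it lay in an intron of Ibf2, 298 bp downstream of its TSS, 487 bp from CG16736 and 761 bp upstream of Ibf1. It counts as a promoter peak of Ibf2 only.

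The shared Ibf site was called in each library. The own signals were 49.6, 54.8 and 44.9 at ranks 2315, 1480 and 1768, and all 3 passed the threshold. M1BP and BEAF-32, at nearly the same height in the conservative list, were missing from replicate 1.

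Among the partner proteins, Chro and Cp190 had promoter peaks in every own list. Chro encodes chromator, a chromodomain protein of polytene interbands that works with JIL-1 kinase and the zinc finger protein Z4 (3L, 22873702 to 22878984, minus strand, 3 TSSs). Its promoter peak (3L, 22878729 to 22879065) had a signal of 1360 and rank 11. The summit lay 69 bp inside the gene, in the 5′ UTR, beside the 105 bp that separate Chro from the divergent gene Ssl1. The own signals were 545, 422 and 399 at ranks 11, 16 and 9, all in the top 16 of their lists. The CGATA letters printed above begin 23 bp before the summit on the plus strand.

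The other Chro summit, at 22872210 (signal 77.2, rank 3879), lay past the gene's 3′ end at the promoters of its neighbours CG11109 and Arf1, 10 bp and 21 bp from their TSSs and 5974 bp from the nearest Chro TSS. Replicate 3 alone called it, with 38.4. It belongs to Chro by the window alone.

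Cp190 encodes the BTB and zinc finger partner that most fly insulator factors recruit (3R, 15270432 to 15275241, minus strand, 2 TSSs). Its only peak (3R, 15275256 to 15275530) had a signal of 579 and rank 156. The own signals were 196, 200 and 181 at ranks 210, 133 and 115. The summit lay 164 bp upstream of Cp190, inside the 281 bp shared with the divergent gene CG4338, whose TSS was nearer at 117 bp. The CTCF core letters lie at the edge of the printed stretch, 93 bp from the summit towards CG4338.

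The gene mod(mdg4) encodes BTB proteins with many alternative ends, one of which joins su(Hw) and Cp190 on the gypsy insulator, and its messages are partly made by trans-splicing (3R, 21350846 to 21377401, minus strand). Its window, longer than 94.5% of those of protein-coding genes, held 3 peaks, and none was within 500 bp of the main TSS. The strongest (3R, 21378631 to 21378885) had a signal of 511 and rank 189. It lay 1357 bp upstream of mod(mdg4) but 219 bp from the TSS of tin, the heart-forming gene tinman, which points the other way. The own signals were 211, 129 and 172 at ranks 183, 325 and 133.

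The inner peak of mod(mdg4) (3R, 21365331 to 21365512) had a signal of 334 and rank 450. The summit was 61 bp from the start of pre-mod(mdg4)-E, one of 23 separately annotated units that give the alternative ends. Starts of 10 such units lay within 500 bp of it, 3 on the minus strand and 7 on the plus strand, and the 7 begin at a common position 182 bp away. The own signals were 136, 109 and 78.3, so the site was in each library.

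The last mod(mdg4) peak, at 21350868 (signal 70.3, rank 4109, 3′ UTR), was in no own list. Replicate 3 had a summit of its own at 21373649 (39.9), 74 bp from pre-mod(mdg4)-AA. The gene's extent matters here: RefSeq ends mod(mdg4) at 21370101, and with that end only the peak beside tin stays in the window. The other 9 genes have the same ends in both annotations.

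**Figure D4:**
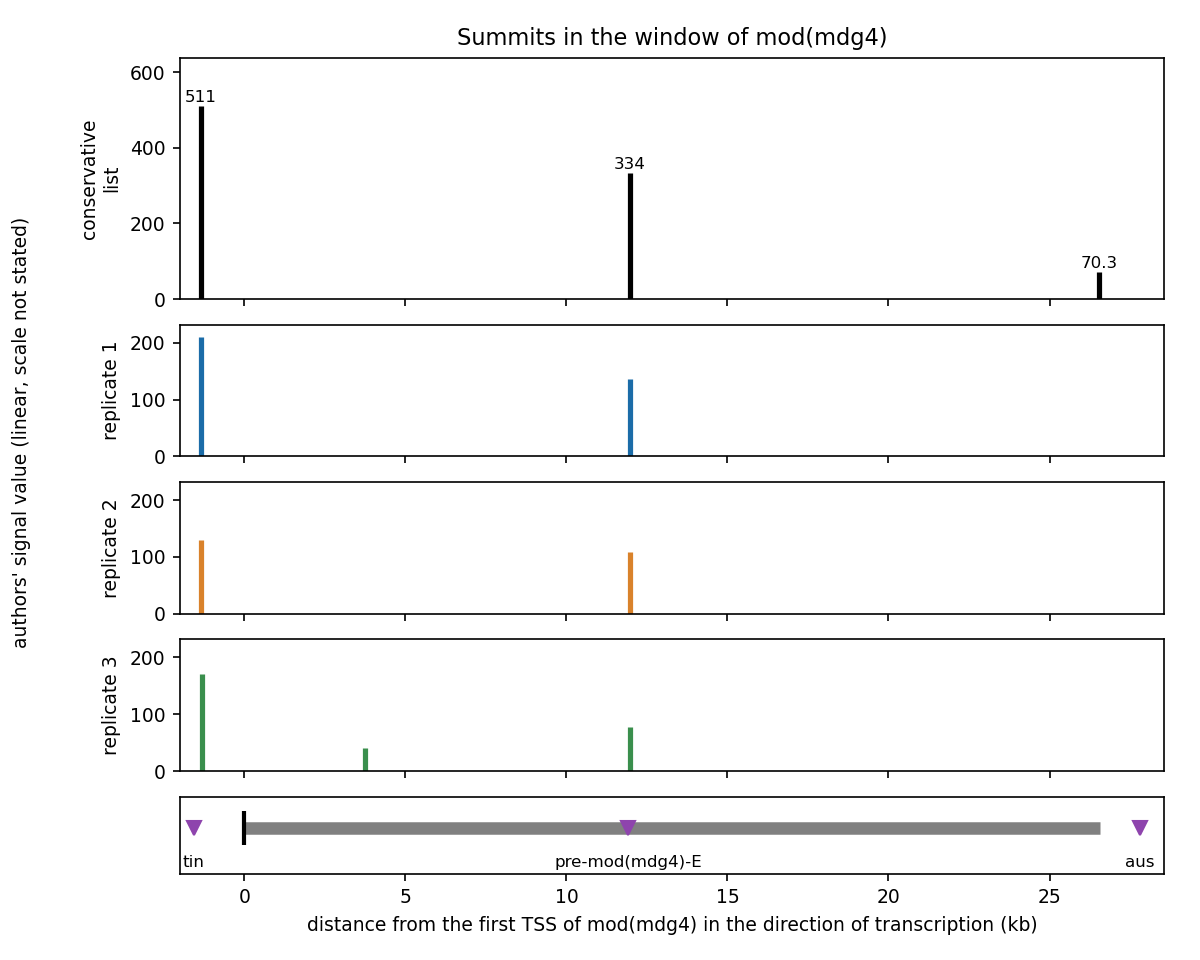
Peak summits in the window of mod(mdg4) by distance from its TSS in the direction of transcription (kb), with the authors' signal value on linear axes that start at 0; the top panel is the conservative list, the next 3 panels are the replicates' own lists on a shared scale, and the bar is the gene with its TSS as a black tick and purple triangles at the TSSs nearest to the 3 conservative summits. The peaks with 511 and 334 recur in every replicate, and the one with 70.3 in none.

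A wider list of 30 architectural genes gave the surroundings of these 10, and 28 of its symbols were found in the annotation. A promoter peak was present at 8 of the 28 (28.6%) and a peak in the window at 9 (32.1%), against 16.2% and 32.1% of all protein-coding genes. By role, promoter peaks were at 2 of 12 DNA-binding factors, 3 of 6 partners, 1 of 5 cohesin genes and 2 of 5 condensin and topoisomerase genes. Of the 28, 3 had a peak in their window in all 3 own lists, a lower share than the 16.7% of all protein-coding genes.

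All 8 promoter peaks were lower than those of Chro and Cp190 and than the stronger promoter peak of Trl (255). They were not all lower than those of BEAF-32, Ibf2 and M1BP. Those of SMC2 and Cap-H2 were above that of BEAF-32 (137), and that of SMC2 also above those of Ibf2 and M1BP (both 152). The highest of the 8 was at SMC2, a condensin subunit (signal 206, rank 1072, 144 bp from its TSS and as far from that of Ercc1), and it overlapped a peak in every own list. Cap-H2, a condensin II subunit, had 139 (rank 1973), with MED7 nearer at 69 bp, and overlapped peaks in 2 own lists. Dref, the DRE-binding factor, had 120 (rank 2396), with RpL13 nearer at 30 bp, and overlapped a peak in 1. The promoter peaks of psq, a BTB factor of GA-rich DNA (109), fs(1)h, a bromodomain protein (99.8), JIL-1, the histone kinase (81.4) and wapl, a cohesin release factor (75.0) overlapped none, although psq had 8 summits in its window. Elsewhere in their windows psq and JIL-1 had peaks in all 3 own lists and fs(1)h in 1.

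For e(y)2, a component of the su(Hw) insulator and of SAGA, the peak (signal 133, rank 2076, 75 bp from its TSS) has a limit of its own. The same summit lies 188 bp from the start of CG11695, the tagged gene, at X, 11576883 to 11578806. DNA of the transgene and of the flies' own gene cannot be told apart there.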

How the data were processed

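ChIP-seq peak lists of 3 biological replicates on assembly dm6 were used as the authors deposited them; no source used here names the aligner or caller. The authors' signal and the deposited score have no stated unit, and the score reached 830 or more in the thresholded lists. The authors' ranked lists give −log10 of the global IDR. Read numbers were not used here, so the libraries' depth is unknown.

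Results refer to the conservative list unless another is named. By identical records, 73.8% and 67.5% of the records it compared stood in the ranked lists of replicates 1 and 3, while its peaks and signals come from pooled libraries. Genes came from Ensembl annotation BDGP6.54 (release 115). Summits were counted from the gene's window and TSSs with Python 3.11.15, pandas 2.3.3 and numpy 2.4.6, and figures were drawn with matplotlib 3.10.9. Counting was tested on simulated summits. No test was run, since there was 1 group. An overlap meant 1 bp or more.

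All 10 genes are named with every peak, and of the wider list each gene with a promoter peak. The 10 genes and the wider list were chosen with earlier results of these data known. Alternatives were other pair lists, the pooled list, a stricter IDR, merged summits, other distances and, added after seeing the data, left-out records, nearest TSS and RefSeq gene ends.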

Additional observations from a re-analysis of the deposited data

How the results depend on the processing

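The 8 genes with a peak in the window and the 6 with a promoter peak were the same in number under nearly all settings run. A promoter distance of 1000 bp gave 7, and counting only summits whose nearest TSS belonged to the gene, chosen after seeing the data, gave 5 genes and 9 peaks, because Cp190, mod(mdg4) and Ibf1 have a neighbour's TSS nearer. Against 15 peaks, an IDR of 0.001 gave 12, RefSeq gene ends 13, left-out records added back 17 and the pooled list 19. Leaving a replicate out of the IDR comparison gave 8 genes, 6 promoter genes and 13 to 15 peaks, and 6 to 8 genes with a peak in every own list left. An IDR of 0.001 left 4 of those. Equal numbers of peaks did not mean the same peaks. Without replicate 3, Trl had 6 and M1BP and the Ibf pair 2 each, while BEAF-32 and Chro had 1 each and mod(mdg4) 2. Of the series' 4 thresholded lists, the weaker BEAF-32 summit stood in 1. The other Chro summit and the last of mod(mdg4) stood in 2. No paired analysis was possible because there was 1 group and no test.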

Other observations

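A pair of records at the end of mod(mdg4) passed the IDR threshold in the ranked counterpart of the conservative list and stood in none of the authors' thresholded lists. One, at 21350156 on 3R, had a signal of 121 and a global IDR of 0.000135, 690 bp past the gene's end and 555 bp from the TSS of aus. In the replicates' ranked lists it had 61.5, 16.5 and 47.7, with IDRs of 0.000273, 0.711 and 0.00172 in replicates 1, 2 and 3. The other, at 21349523, had 49.3 and an IDR of 0.00665, 78 bp from the same TSS. In all, 125 records past the threshold in that ranked counterpart were missing from the conservative list, and 81 of them lay on 3R. Only the pair at mod(mdg4) was looked up in the other thresholded lists.

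The promoter peak of Chro was the last conservative peak on 3L. Beyond its summit lay 0 conservative peaks, 60 ranked records and the starts of 45 protein-coding genes, and the own lists of replicates 1, 2 and 3 held 1, 0 and 0 peaks there.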
